A study of Mus musculus with 8 samples.

Results

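The interferon-stimulated genes are described here in stromal cells of mouse femurs that were intact or healing from a fracture. The 37 genes were taken as a list by name out of 28956 genes in the tables by no rule on their values, although earlier results of these data were known when the list was chosen. Of these, 36 had values in all 4 cell preparations, and Usp18 had values in 3. Magnetic beads had removed lineage-positive, CD45+ and CD117+ blood cells from the suspensions. These were sequenced as 3′ single cell libraries, in which each unique molecular identifier (UMI) stands for 1 captured transcript. All mice were wild-type C57BL/6 females of 12 weeks. In the Fracture group the left leg had been broken by bending at 10 weeks, held with a nail inside the marrow cavity and collected at day 14, whereas the Control mice were not operated on. Each group was numbered 1 and 2 in the labels, with 2 libraries to each number. The 2 libraries of a number were read as draws of 1 preparation and summed, which the labels do not say outright, and nothing in the sources used here says whether a preparation pooled animals. All tests therefore rest on n = 2 preparations per group. Their p-values rest on the spread between these preparations, which may be technical and was estimated with the help of other genes. In tests between classes the preparation was a block, so those p-values rest on the spread left after it.

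Interferons are secreted proteins that cells release on viral infection or on sensing misplaced nucleic acids. Type I and type III interferons act through the kinases JAK1 and TYK2 on STAT2, which joins IRF9 in the complex ISGF3 that binds the interferon-stimulated response element (ISRE) in front of target genes. Interferon gamma acts through another element, the gamma-activated site (GAS). The list holds parts of this machinery (Stat2, Irf9, Irf7), sensors of foreign nucleic acid (Ifih1, Dhx58, Zbp1) and effectors. The effectors include the ubiquitin-like protein ISG15 with its partners, the RNA-binding IFIT family, the OAS family around RNA decay, the RNA-dependent kinase PKR (Eif2ak2), the membrane proteins tetherin (Bst2) and IFITM3, and the guanylate-binding proteins.

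Promoter windows from RefSeq (GRCm38.p6), each of 300 bases with 250 before and 50 after the annotated start, were matched by name to 29 of the 37 genes. The ISRE was searched on both strands as GAAA, any 2 bases and GAAA and was found for 14 of the 29 genes (48.3%), against 3.99% of the 27025 genes with a window. GAS was searched as TTC, any 3 bases and GAA, which reads the same on both strands, and was found for 7 of the 29 (24.1%), against 9.55% of all genes. Both were found for 5 members and neither for 13, and the 2 patterns can overlap. Stretches of 50 bases with the ISRE letters in capitals are shown for 5 members whose changes recur below, because they show the element the list is named for.
Isg15: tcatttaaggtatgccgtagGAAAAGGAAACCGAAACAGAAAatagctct
Ifit1: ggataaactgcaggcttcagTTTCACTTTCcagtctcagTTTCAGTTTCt
Ifit3: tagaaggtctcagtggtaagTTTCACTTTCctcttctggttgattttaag
Stat2: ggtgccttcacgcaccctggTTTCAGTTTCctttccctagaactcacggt
Bst2: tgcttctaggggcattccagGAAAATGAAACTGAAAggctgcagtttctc

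All 5 stretches are written on the strand of their gene and lie before the annotated gene. In GRCm38, the Isg15 stretch is at chr4:156200867-156200916 on the minus strand, next to the gene at chr4:156199424-156200818. The Ifit1 stretch is at chr19:34640765-34640814 on the plus strand, before the gene at chr19:34640871-34650009. For Ifit3 the stretch is at chr19:34583353-34583402 on the plus strand, before the gene at chr19:34583531-34588731, and the neighbouring Ifit3b holds the same 50 letters at chr19:34607749-34607798. The Stat2 stretch is at chr10:128270256-128270305 on the plus strand, before the gene at chr10:128270559-128292849. The Bst2 stretch is at chr8:71537573-71537622 on the minus strand, next to the gene at chr8:71534255-71537456. A match of letters describes the sequence and does not show that a factor binds there.

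The libraries held 55720606 to 87990672 UMIs, and 45390 of 48903 barcodes passed the filters, 20713 in Control and 24677 in Fracture. Library medians ran from 7170 to 12561 UMIs per cell, and Control libraries were shallower. Depletion of blood cells was incomplete, since basophil-like, erythroid-like and megakaryocyte-like cells made up 6566 of the Control cells (31.7%) and 718 of the Fracture cells (2.91%). These were set aside, and nearly all of the remaining cells were grouped into 6 stromal classes named from marker genes: bone marrow stromal cell (BMSC)-like, osteoblast-like, fibroblast-like, chondrocyte-like, endothelial-like and smooth muscle-like. The BMSC-like class was split into diaphyseal (dpMSC)-like and metaphyseal (mpMSC)-like cells. The markers held well in some classes and not in others. In mpMSC-like cells the 6 markers summed to 45200 and 41600 CPM (counts scaled to equal library totals) in the Control preparations and to 51000 and 43900 CPM after fracture. In the cells that clustered as dpMSC-like, the 7 markers summed to 47400 and 42400 CPM in Control but only to 3970 and 5820 CPM after fracture, while mpMSC markers rose from 1630 and 1320 CPM to 13200 and 11200 CPM. The Fracture cells of that cluster thus went against its name, and when libraries were clustered without integration 610 of these 787 cells (77.5%) fell among fibroblast-like cells. The BMSC-like class shares this limit, since its 8 markers summed to 28800 and 30100 CPM in Control and to 2300 and 2680 CPM after fracture, and since Control held 2928 dpMSC-like and 1382 mpMSC-like cells against 787 and 1085 in Fracture. Values obtained without integration are therefore given for the main results of these classes. Leftover haemoglobin RNA (Hbb-bt and Hba-a1) was higher after fracture in every class and is given with the results of each.

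In Control bone the members were strongest in endothelial-like and BMSC-like cells and weakest in chondrocyte-like and osteoblast-like cells. The 36 members summed to 5590 and 5620 CPM in the 2 endothelial-like Control preparations and to 4560 and 5870 CPM in the BMSC-like ones, whose ranges overlapped. Smooth muscle-like cells followed with 1990 and 2460 CPM and fibroblast-like cells with 1130 and 1390 CPM. Osteoblast-like cells held 445 and 437 CPM and chondrocyte-like cells 397 and 369 CPM. No range overlapped below that of the leading pair, although osteoblast-like and chondrocyte-like values lay close together. Ifitm3, which blocks fusion of viral with cellular membranes and is common in stroma without interferon, made up 48.4% and 43.8% of the sum in BMSC-like Control cells but 10.5% and 4.12% in chondrocyte-like ones. For this reason the sum was also taken over the 30 members left after Ifitm3, Bst2, Lgals3bp, Ifi27, Sp100, Trim25 and Usp18 were set aside, called the inducible members.

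After fracture the level was lower in some classes and higher in others. The inducible members fell from 861 and 1110 CPM to 388 and 389 CPM in mpMSC-like cells and from 1170 and 1610 CPM to 732 and 730 CPM in BMSC-like cells. Without integration these sums went from 807 and 1060 CPM to 434 and 449 CPM in mpMSC-like cells and from 1110 and 1580 CPM to 461 and 503 CPM in BMSC-like cells. In the dpMSC-like cluster the sum went from 1410 and 1860 CPM to 1110 and 1130 CPM. Without integration dpMSC-like cells held 1400 and 1860 CPM in Control and 1640 and 2060 CPM after fracture, with overlap. These cells then numbered 1695 and 1257 in Control against 20 and 35 after fracture. The part of this change of composition in the BMSC-like fall was not tested. Endothelial-like cells went from 1890 and 2010 CPM to 1510 and 1520 CPM. In smooth muscle-like cells the sum went the other way, from 559 and 704 CPM to 925 and 1020 CPM. Fibroblast-like cells held 279 and 281 CPM in Control and 379 and 420 CPM after fracture. Chondrocyte-like cells held 122 and 121 CPM against 138 and 133 CPM, and osteoblast-like cells 103 and 114 CPM against 89.3 and 84.4 CPM. Apart from dpMSC-like cells without integration, the Control and Fracture values did not overlap in any of these classes. These sums are a description without a test.

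**Figure D1:**
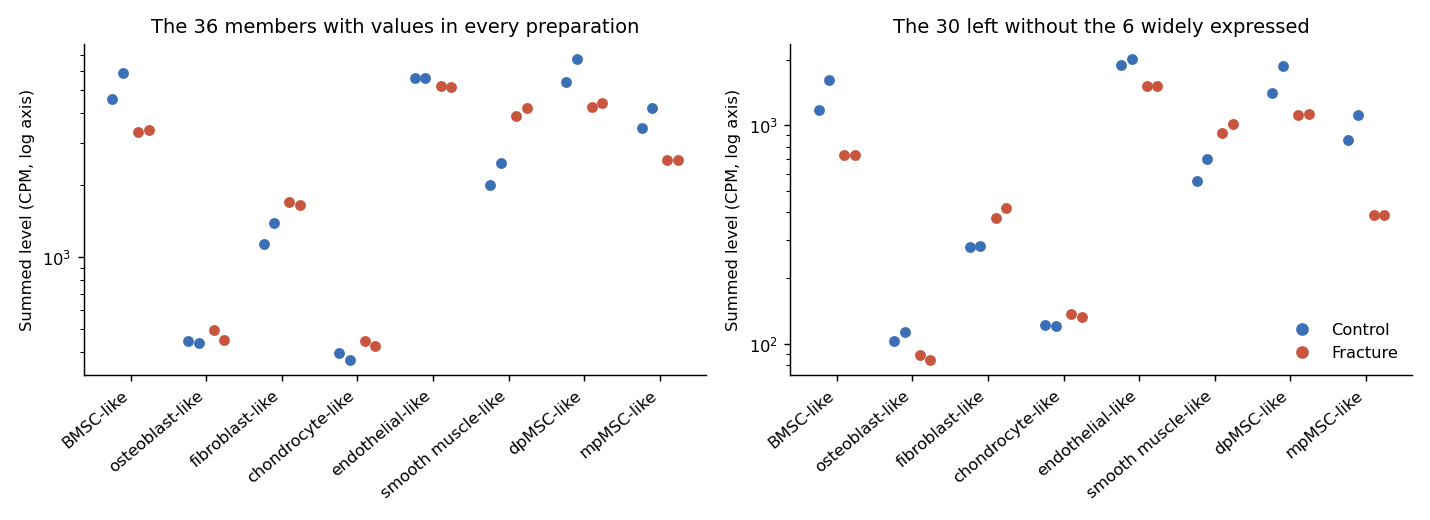
Summed level of the interferon-stimulated genes in each cell class, as CPM on a log axis, for 36 members (left) and for the 30 inducible members (right). Each point is 1 preparation, blue for Control and red for Fracture (n = 2 each). The inducible sum was lower after fracture in mpMSC-like cells (861 and 1110 CPM against 388 and 389 CPM) and higher in smooth muscle-like cells (559 and 704 CPM against 925 and 1020 CPM).

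The counts of single genes split the classes in the same way. The 2 groups were compared with edgeR's quasi-likelihood test over all genes of a class, and a gene is said to have risen or fallen where the Benjamini-Hochberg adjusted p was under 0.05. Statements below that the groups lay apart describe 2 against 2 values, mostly of genes picked because they were called. They add nothing to the test, and the share over all genes that lay apart is not given. In mpMSC-like cells 30 of 33 members tested fell (90.9%) and 0 rose, against a background of 18.8% of all genes that fell and 20.1% that rose. At an unadjusted p under 0.05 the count was the same, 30 and 0, and DESeq2 also had 0 rise. BMSC-like cells had 24 of 36 members fall (66.7%) and 1 rise, with 27.8% of all genes falling and 27.9% rising. Endothelial-like cells had 16 of 36 fall (44.4%) and 5 rise, with 20.3% of all genes falling and 22.8% rising. With the highest 6% of doublet scores removed from each library, a choice made after seeing the data, 13 fell and 9 rose there, and 18 of these 22 were among the 21 called before. Smooth muscle-like cells had the opposite balance, as 19 of 33 rose (57.6%) and 3 fell against 18.1% and 16.8% of all genes. In fibroblast-like cells 8 of 30 rose (26.7%) and 0 fell, against 11% and 10.7% of all genes. At an unadjusted p under 0.05, 2 of the members fell (Herc6 and Sp100). At the adjusted threshold DESeq2 also had 0 fall, but with no filter on low counts 11 rose and 1 fell. That setting called 3873 genes in all, against 2630 before. Chondrocyte-like cells had 9 of 34 rise (26.5%) and 3 fall, against 23.7% and 21.8%, so that the rising share was near the background. Osteoblast-like cells had 3 of 30 rise (10%) and 8 fall (26.7%), against 14.1% and 11.3%.

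**Figure D2:**
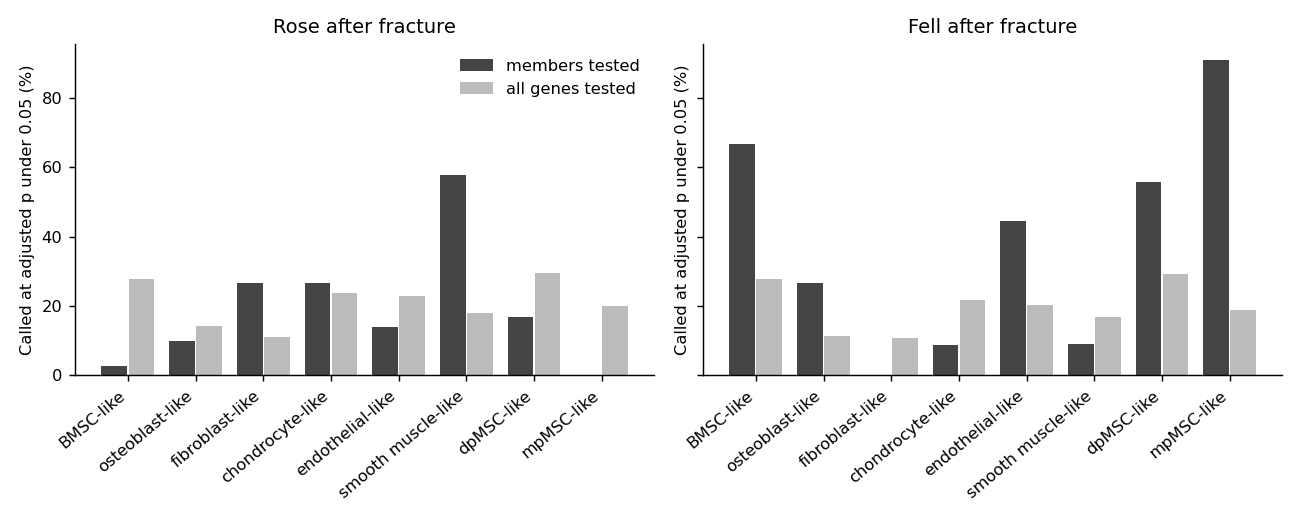
Share of genes called at an adjusted p under 0.05 (edgeR, Fracture against Control), in percent, for genes that rose (left) and fell (right), with dark bars for the members tested and grey bars for all genes tested in each class. In mpMSC-like cells 90.9% of the members fell against 18.8% of all genes, and in smooth muscle-like cells 57.6% of the members rose against 18.1%.

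Over the 6 classes, members did not share 1 direction. Of the 36 members tested, 7 rose in at least 1 class and fell in none (19.4%, against 26.6% of the 17890 genes tested in any class), namely Isg15, Ifit1, Ifit2, Oasl1, Mx1, Ifitm3 and Eif2ak2. Another 12 fell in at least 1 and rose in none (33.3%, against 32.2% of all genes), namely Oas1a, Irf9, Stat2, Ifi35, Parp9, Parp14, Dtx3l, Gbp2, Gbp7, Cmpk2, Herc6 and Sp100. Both of these shares were near or below the background. The other 17 were called in both directions, depending on the class (47.2%, against 14.8% of all genes), and Usp18 was not tested. That background holds every gene tested in at least 1 class, and a gene tested in only 1 class cannot be called both ways. The 47.2% and the 14.8% are therefore not shares of like sets. Without integration Isg15, Ifit1 and Ifit2 fell in BMSC-like cells (log2 changes -0.83, -1.93 and -0.69, edgeR adjusted p = 0.00266, 0.00013 and 0.0237), so that the first of these groups depends on the clustering. Zbp1, a sensor of Z-form nucleic acid, rose in 5 classes and fell in 1, with very low levels in osteoblast-like and chondrocyte-like cells. Parp9, a partner of the ubiquitin ligase Dtx3l, fell in 4 classes and rose in 0.

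**Figure D3:**
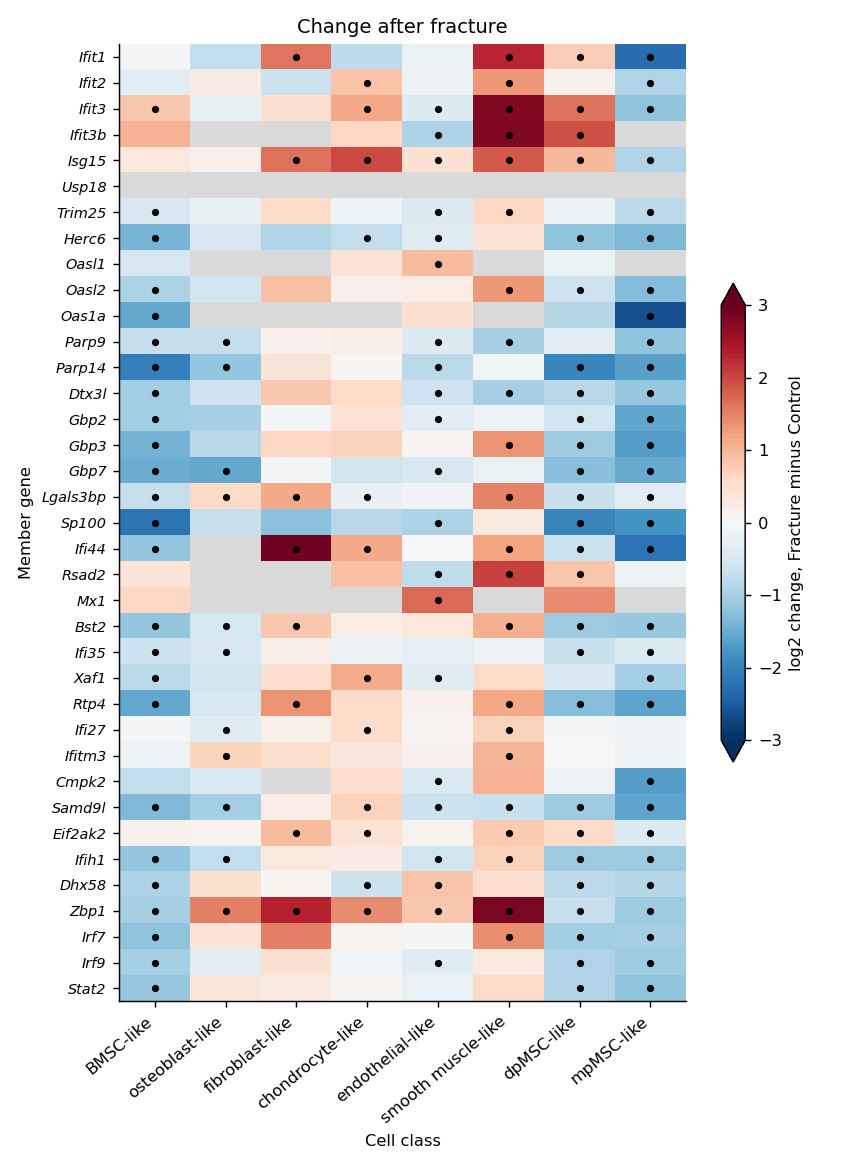
Change of each of the 37 members (rows) in 8 cell classes (columns) as the log2 change, Fracture minus Control, with red for higher and blue for lower after fracture on a scale cut at 3. Dots mark members called by edgeR at an adjusted p under 0.05, and grey cells were not tested. The mpMSC-like column holds 30 falls and 0 rises, and the smooth muscle-like column 19 rises and 3 falls.

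With integrated clusters the decrease was most complete in mpMSC-like cells, which were named as metaphyseal from markers such as Postn, Mmp13 and Mmp9. Their location in the bone was not measured. The median log2 change of the tested members there was -1.14, against -0.02 over all genes. Without integration 26 of 34 members fell in these cells (18% of all genes), with a median log2 change of -0.97. In BMSC-like cells, whose composition then changed, 29 of 36 fell (25.6% of all genes), with a median of -1.29. In the integrated mpMSC-like class Ifit1, which binds foreign RNA lacking host cap methylation, stood at 43.6 and 55.9 CPM in Control and at 9.87 and 10.2 CPM after fracture (log2 change -2.29 ± 0.17 SE, edgeR adjusted p = 4.2e-06). Ifi44, an antiviral protein of the same response, went from 9.06 and 20.9 CPM to 3.61 and 2.56 CPM (-2.21 ± 0.44, edgeR adjusted p = 0.00239). Sp100, a component of nuclear bodies, went from 17.4 and 21.4 CPM to 5.78 and 5.33 CPM (-1.79 ± 0.22, edgeR adjusted p = 0.000119). In each of the 3 genes both Fracture preparations lay below both Control preparations.

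Every functional group of the list took part in mpMSC-like cells. The 3 guanylate-binding proteins, GTPases that attack the vacuoles of intracellular pathogens, all fell, with Gbp3 from 28.1 and 38.9 CPM to 9.39 and 11.5 CPM (log2 change -1.65 ± 0.2, edgeR adjusted p = 0.000121) and Gbp2 from 20.2 and 29.9 CPM to 6.74 and 9.6 CPM (-1.57 ± 0.25, edgeR adjusted p = 0.000565). Gbp3 shares 79.4% of aligned bases with Gbp7, so the split of reads between that pair is uncertain. The 3 members of the PARP9-DTX3L group fell, among them the ADP-ribosyltransferase Parp14 from 35.7 and 54.3 CPM to 14.2 and 14.3 CPM (-1.63 ± 0.21, edgeR adjusted p = 0.000143). The 3 transcription factors fell as well, with Stat2 from 36.2 and 47.2 CPM to 19.5 and 16.2 CPM (-1.21 ± 0.17, edgeR adjusted p = 0.000258) and Irf7, the amplifier of type I interferon production, from 27.6 and 29.9 CPM to 15.6 and 13 CPM (-1 ± 0.16, edgeR adjusted p = 0.000613).

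Isg15 itself stood at 89.3 and 118 CPM in mpMSC-like Control cells and at 60.4 and 49.3 CPM after fracture (log2 change -0.91 ± 0.15, edgeR adjusted p = 0.000638). Ifit3 went from 20.5 and 34.7 CPM to 10.3 and 12.8 CPM (-1.21 ± 0.25, edgeR adjusted p = 0.00354), although its 97.8% identity to Ifit3b leaves the split between those 2 genes uncertain. Bst2, which tethers budding virions to the cell surface, went from 340 and 641 CPM to 226 and 219 CPM (-1.13 ± 0.22, edgeR adjusted p = 0.00213). Changes were smaller for Eif2ak2 (-0.41 ± 0.14, edgeR adjusted p = 0.0428) and for Lgals3bp, a secreted glycoprotein (-0.35 ± 0.09, edgeR adjusted p = 0.0113). The 3 tested members that did not pass were Rsad2 (edgeR adjusted p = 0.854), Ifi27 (0.381) and Ifitm3, which held 1600 and 1730 CPM in Control and 1530 and 1580 CPM after fracture (0.475). Under each of the 12 alternatives run, 24 to 33 members fell and 0 rose, with 26 that fell without integration, where Eif2ak2 (-0.33, edgeR adjusted p = 0.0854) and Lgals3bp (-0.17, 0.174) did not pass. Markers of dpMSC-like cells moved in the same direction in this class, as the 7 markers summed to 6700 and 7340 CPM in Control and to 1260 and 1080 CPM after fracture, with 6 of the 7 and then 4 of the 7 seen in at least 10% of cells. Haemoglobin RNA was 19.2 and 90.5 CPM in Control and 102 and 365 CPM after fracture. Without integration 15.2% of the Fracture cells of this class fell among osteoblast-like cells. The part of each of these in the result was not tested.

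In the BMSC-like class as a whole, whose Fracture cells had lost most of the marker level, the median log2 change of the members was -0.94 against -0.04 over all genes. Sp100 went from 42.9 and 58.1 CPM to 10.1 and 12.1 CPM (log2 change -2.18 ± 0.18, edgeR adjusted p = 8.01e-05). Parp14 went from 69.5 and 108 CPM to 20.8 and 22.1 CPM (-2.05 ± 0.21, edgeR adjusted p = 0.000212). Rtp4, a protein tied to the control of interferon signalling, went from 80.9 and 106 CPM to 30.4 and 33.8 CPM (-1.54 ± 0.15, edgeR adjusted p = 0.000149). The groups did not overlap for these genes, and the same held for Gbp7 (-1.49 ± 0.16, edgeR adjusted p = 0.000243) and Gbp3 (-1.42 ± 0.19, edgeR adjusted p = 0.000681). Without integration all 5 of these genes fell too, by 1.75 to 2.58 on the log2 scale, but that class held 1695 and 1257 dpMSC-like and 997 and 527 mpMSC-like cells in Control against 20 and 35 dpMSC-like and 570 and 610 mpMSC-like cells after fracture. The part of this change of composition in the BMSC-like falls was not tested, and within each of the 2 kinds of cells the values are given separately.

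Of the factors and effectors followed in every class, Irf7 (log2 change -1.21 ± 0.18, edgeR adjusted p = 0.00118), Stat2 (-1.14 ± 0.19, 0.00188), Bst2 (-1.19 ± 0.26, 0.00679), Gbp2 (-1.05 ± 0.26, 0.0106) and Lgals3bp (-0.68 ± 0.1, 0.000947) fell in BMSC-like cells. Ifit1 held 59.5 and 73.3 CPM in Control and 61.9 and 66.8 CPM after fracture (edgeR adjusted p = 0.768), and the preparations overlapped. Isg15 (0.32 ± 0.14, edgeR adjusted p = 0.0924), Eif2ak2 (0.13 ± 0.13, 0.392) and Ifitm3 (-0.15 ± 0.13, 0.385) did not pass either. Ifit3 was the 1 member that rose, from 22.7 and 41 CPM to 60.3 and 50.5 CPM (0.81 ± 0.25, edgeR adjusted p = 0.0265). Without integration that rise turned into a fall (-1.46, edgeR adjusted p = 0.00522), Isg15 fell too (-0.83, edgeR adjusted p = 0.00266) and so did Ifit1 (-1.93, edgeR adjusted p = 0.00013). In all, 29 of 36 members were then called and each of them fell, against 25.6% of all genes, with the same change of composition. Haemoglobin RNA in BMSC-like cells was 52 and 110 CPM in Control and 298 and 796 CPM after fracture, and its part in the result was not tested.

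The cells clustered as dpMSC-like had 20 of 36 members fall (55.6%) and 6 rise (16.7%), against 29.1% and 29.5% of all genes. Sp100 fell from 62.2 and 76.5 CPM to 15 and 20.1 CPM (log2 change -1.98 ± 0.17, edgeR adjusted p = 1.94e-05), Parp14 by 1.96 on the log2 scale (edgeR adjusted p = 3.14e-05), Rtp4 by 1.28 (7.19e-05), Gbp7 by 1.27 (0.000221) and Herc6, an ISG15 ligase, by 1.21 (0.00221). Irf7 (-1.05 ± 0.2, edgeR adjusted p = 0.00167), Stat2 (-0.89 ± 0.21, 0.00529), Bst2 (-1.08 ± 0.24, 0.0044), Gbp2 (-0.6 ± 0.22, 0.0445) and Lgals3bp (-0.66 ± 0.11, 0.00107) fell as well. Ifitm3 did not pass (-0.02 ± 0.15, edgeR adjusted p = 0.901). None of these falls passed without integration, where log2 changes of Irf7 (0.01), Bst2 (0.48), Lgals3bp (0.25) and Rtp4 (0.13) had the other sign, and those of Sp100 (-0.37), Parp14 (-0.25), Gbp7 (-1.04), Herc6 (-0.3), Stat2 (-0.3) and Gbp2 (-0.98) kept it, with edgeR adjusted p from 0.19 to 0.996 over the 10 genes. At an unadjusted p under 0.05, Gbp7 (0.00803) and Gbp2 (0.0396) passed there.

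The 6 that rose in this cluster were Isg15, 3 IFIT genes, Rsad2 and Eif2ak2. Isg15 went from 125 and 154 CPM to 293 and 256 CPM (log2 change 0.97 ± 0.13, edgeR adjusted p = 0.000297). Ifit3 went from 24.4 and 44.3 CPM to 117 and 95.4 CPM (1.63 ± 0.24, edgeR adjusted p = 0.000417), and its near copy Ifit3b from 2.32 and 4.72 CPM to 15 and 11.6 CPM (1.91 ± 0.34, edgeR adjusted p = 0.00139). Ifit1 (0.73 ± 0.11, edgeR adjusted p = 0.000639), Rsad2, which encodes the antiviral enzyme viperin (0.83 ± 0.28, 0.0281), and Eif2ak2 (0.58 ± 0.15, 0.00988) followed. These comparisons set Control cells rich in dpMSC markers against Fracture cells that had lost them. Without integration only 20 and 35 Fracture cells clustered as dpMSC-like, and of 35 members tested 2 were called, Isg15 (0.96, edgeR adjusted p = 0.0104) and Rsad2 (4.01, 2.13e-07), both higher after fracture, against 1.17% of all genes that rose. Ifit1 (0.79, edgeR adjusted p = 0.171), Ifit3 (0.13, 0.966), Ifit3b (0.78, 0.859) and Eif2ak2 (0.99, 0.217) did not pass there. Haemoglobin RNA in this cluster was 77.9 and 120 CPM in Control and 516 and 1300 CPM after fracture, and its part in the result was not tested.

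The difference in fracture effect between mpMSC-like and dpMSC-like cells was tested directly, in 1 fit with a class-by-group term and the preparation as a block, a test added after the values in each had been seen. It was called for 15 of 36 members (41.7%), against 29.9% of all genes, with 14 changing further downwards in mpMSC-like cells and 1 (Lgals3bp) the other way. The difference was -3.02 ± 0.16 on the log2 scale for Ifit1 (edgeR adjusted p = 1.92e-13), -1.89 ± 0.11 for Isg15 (2.43e-12), -2.87 ± 0.19 for Ifit3 (1.06e-11) and -1.01 ± 0.16 for Eif2ak2 (1.45e-05). These 4 genes rose in the dpMSC-like cluster and fell in mpMSC-like cells, while 20 members fell in both. Without integration the difference for Ifit1 was -2.6 (edgeR adjusted p = 1.46e-13) and for Isg15 -1.58 (5.69e-12), and that for Ifit3 was -1.45 and did not pass (0.118). Only 20 and 35 Fracture cells clustered as dpMSC-like without integration. The small p-values of both fits draw on the spread of other genes, with 2 preparations per group. In that clustering 11 members were called, of which 6 were among the 15, and 595 genes in all were called against 3930 before.

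Endothelial-like cells, which line the vessels of the marrow, had a median log2 change of -0.19 among the members, against 0 over all genes. Sp100 was at 191 and 212 CPM in Control and at 98.5 and 109 CPM after fracture (log2 change -0.95 ± 0.09, edgeR adjusted p = 0.000686). Parp14 went from 152 and 186 CPM to 94.7 and 97.7 CPM (-0.81 ± 0.11, edgeR adjusted p = 0.00193). Rsad2 went from 172 and 198 CPM to 105 and 112 CPM (-0.77 ± 0.09, edgeR adjusted p = 0.00143). For each of them the groups lay apart. Ifit3b (-0.93 ± 0.29, edgeR adjusted p = 0.0402) and Samd9l, a restriction factor for poxviruses (-0.64 ± 0.08, 0.00142), fell as well, together with Ifit3 (-0.42 ± 0.11, 0.0206) and Gbp2 (-0.33 ± 0.08, 0.0196).

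Among the members that rose in endothelial-like cells were Oasl1, Dhx58, Zbp1 and Isg15, the first at low counts. Oasl1, an OAS-like protein without synthetase activity, was at 5.84 and 4.05 CPM in Control and 9.8 and 9.29 CPM after fracture (log2 change 0.94 ± 0.22, edgeR adjusted p = 0.0161). Dhx58, the RNA sensor LGP2, went from 14.9 and 21.2 CPM to 29.7 and 35.3 CPM (0.85 ± 0.18, edgeR adjusted p = 0.0106). Zbp1 went from 11.6 and 14.3 CPM to 23.9 and 21.1 CPM (0.8 ± 0.15, edgeR adjusted p = 0.00744) and Isg15 from 126 and 138 CPM to 191 and 171 CPM (0.45 ± 0.09, 0.00853). Ifit1, Irf7, Stat2, Bst2, Ifitm3, Lgals3bp and Eif2ak2 did not pass, with log2 changes from -0.19 to 0.32. Without preparation 1 of the Fracture group 6 members were called, and without preparation 2 of that group 9, while the count over all genes went from 6066 to 2468 and 2904. Haemoglobin RNA stood at 270 and 77.1 CPM in Control and 1080 and 1210 CPM after fracture. The class's own 7 markers summed to 7550 and 7520 CPM against 5810 and 5800 CPM, and the part of either in these results was not tested.

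Smooth muscle-like cells, the contractile wall cells of vessels, had the most members that rose, with a median log2 change of 0.78 against -0.02 over all genes. All 4 IFIT genes rose, with Ifit3b at low levels (plain CPM 0 and 3.98 in Control against 7.92 and 7.13 after fracture). Ifit3b could have passed the filter on low counts through the Fracture group alone, and it is 97.8% identical to Ifit3. Ifit3 went from 5.64 and 10.3 CPM to 46.1 and 50.9 CPM (log2 change 2.78 ± 0.29, edgeR adjusted p = 0.000125) and Ifit1 from 9.93 and 15.8 CPM to 50.4 and 64.8 CPM (2.28 ± 0.26, 0.000216). Zbp1 went from 1.88 and 3.16 CPM to 12.5 and 20 CPM (2.83 ± 0.47, edgeR adjusted p = 0.00158). Like Ifit3b, Zbp1 could have passed the filter on low counts through the Fracture group alone, and both count among the members that rose. Isg15 went from 52.9 and 58.5 CPM to 169 and 229 CPM (1.85 ± 0.18, edgeR adjusted p = 8.88e-05). Rsad2 rose by 2.04 ± 0.44 on the log2 scale (edgeR adjusted p = 0.00639), from 11.3 and 1.58 CPM, 2 Control values far apart, to 36.1 and 32.1 CPM.

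The rise in smooth muscle-like cells reached the factor Irf7 (log2 change 1.39 ± 0.3, edgeR adjusted p = 0.00666) and the widely expressed members Lgals3bp (1.49 ± 0.18, 0.000239), Bst2 (1.07 ± 0.16, 0.000779) and Ifitm3, which went from 1010 and 1290 CPM to 2280 and 2400 CPM (1.02 ± 0.18, 0.0025). Eif2ak2 rose too (0.78 ± 0.22, edgeR adjusted p = 0.0231), while Stat2 (0.57 ± 0.21, 0.0617) and Gbp2 (-0.16 ± 0.28, 0.698) did not pass. Against the direction of the others, Parp9 (-0.99 ± 0.19, edgeR adjusted p = 0.00325), Dtx3l (-0.99 ± 0.28, 0.0232) and Samd9l (-0.67 ± 0.19, 0.0202) fell. With DESeq2 in place of edgeR 12 members were called, 11 of them higher and 1 lower, while the count over all genes went from 3653 to 1839. Haemoglobin RNA stood at 27.9 and 62.1 CPM in Control and at 1420 and 1600 CPM after fracture in these cells, the class's own 6 markers summed to 39300 and 38900 CPM against 17900 and 20000 CPM, and the part of either in the result was not tested.

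Fibroblast-like cells had 8 members that rose and a median log2 change of 0.48 against -0.02. Ifi44, 1 of the 8, held 2 and 0 UMIs in Control and 21 and 36 after fracture. It could have passed the filter on low counts through the Fracture group alone. Zbp1 went from 2.98 and 2.32 CPM to 12.9 and 14.7 CPM (log2 change 2.31 ± 0.32, edgeR adjusted p = 0.00425). Isg15 went from 15.2 and 12.4 CPM to 46.3 and 43 CPM (1.64 ± 0.16, edgeR adjusted p = 0.00135). Ifit1 was at 11.2 and 6.97 CPM in Control and at 19.4 and 39.9 CPM after fracture, the Fracture values being 2 that differed widely (1.61 ± 0.45, edgeR adjusted p = 0.0465). Rtp4 (1.34 ± 0.23, edgeR adjusted p = 0.00864), Lgals3bp (1.14 ± 0.16, 0.00419), Eif2ak2 (0.95 ± 0.16, 0.00832) and Bst2 (0.82 ± 0.13, 0.00772) rose without overlap of the groups. Irf7 (1.51 ± 0.48, edgeR adjusted p = 0.0677), Ifit3 (0.48 ± 0.3, 0.297), Ifitm3 (0.5 ± 0.2, 0.114), Stat2 (0.26 ± 0.2, 0.387) and Gbp2 (-0.04 ± 0.29, 0.945) did not pass.

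Counts in fibroblast-like cells depended on single preparations. Without preparation 1 or 2 of the Fracture group 4 or 3 members were called, and without preparation 2 of Control 13. The count over all genes moved in step, from 2630 to 692, 714 and 4282. Without integration, which moved cells of the dpMSC-like cluster into this class, 17 members were called, all higher after fracture, and 3735 genes in all. Haemoglobin RNA was 9.98 and 44.4 CPM in Control and 198 and 268 CPM after fracture, the class's own 8 markers summed to 49200 and 43600 CPM against 16200 and 15700 CPM, and the part of either was not tested.

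Chondrocyte-like cells, the largest class with 2779 Control and 13956 Fracture cells, held the members at low levels. Isg15 rose from 4.06 and 4.16 CPM to 17.2 and 15 CPM (log2 change 1.97 ± 0.11, edgeR adjusted p = 5.17e-05). Ifit3 rose from 6.18 and 6.54 CPM to 14.4 and 13.8 CPM (1.16 ± 0.09, edgeR adjusted p = 0.000138). Samd9l rose from 6.4 and 4.85 CPM to 9.36 and 9.35 CPM (0.68 ± 0.13, edgeR adjusted p = 0.00547). For these genes the groups lay apart, and the same was seen for Ifi27, a mitochondrial and nuclear envelope protein (0.54 ± 0.07, edgeR adjusted p = 0.00133), and Eif2ak2 (0.42 ± 0.09, 0.00924).

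In the other direction, Dhx58 fell in chondrocyte-like cells from 15.7 and 18.7 CPM to 10.3 and 11.4 CPM (log2 change -0.64 ± 0.11, edgeR adjusted p = 0.00331), and Lgals3bp fell by 0.23 on the log2 scale (0.0287). Ifit1 stood at 4.28 and 1.62 CPM in Control and 2.02 and 1.73 CPM after fracture, with overlap (edgeR adjusted p = 0.11). Irf7, Stat2, Bst2, Ifitm3 and Gbp2 did not pass, with log2 changes from 0.07 to 0.44. Without preparation 1 of the Fracture group 6 members were called, while the count over all genes went from 7765 to 4118. With the highest doublet scores removed, 18 rose and 3 fell, with 7867 genes called in all. Haemoglobin RNA was 58.5 and 166 CPM in Control and 350 and 373 CPM after fracture. The class joined a cluster with Col10a1 and Ihh (1530 Control and 11537 Fracture cells) and a cluster with Serpina1 genes (1249 and 2419). Without integration the clusters with the same genes held 211 and 11392 cells, and 2387 and 2521 cells. The part of haemoglobin RNA or of this shift between clusters in these calls was not tested.

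Osteoblast-like cells held the fewest inducible transcripts of the 6 classes, and 11 of the 30 tested were called. Gbp7 fell from 10 and 11.7 CPM to 3.41 and 3.97 CPM (log2 change -1.54 ± 0.15, edgeR adjusted p = 0.000268) and Samd9l from 14.6 and 15.5 CPM to 7.09 and 7.69 CPM (-1.02 ± 0.11, 0.000501). Ifih1, the RNA sensor MDA5, fell by 0.74 on the log2 scale (edgeR adjusted p = 0.0107), Bst2 by 0.53 (0.00282) and Ifi35 by 0.51 (0.0218). Ifitm3 rose from 138 and 123 CPM to 212 and 203 CPM (0.67 ± 0.09, edgeR adjusted p = 0.00112) and Lgals3bp from 8.28 and 8.85 CPM to 14.4 and 11.6 CPM (0.6 ± 0.14, 0.0135). Because of these rises in widely expressed members, the log2 ratio of the summed level was 0.09 over 36 members and -0.32 over the 30 inducible ones.

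Isg15, Ifit1, Ifit3, Irf7, Stat2, Gbp2 and Eif2ak2 did not pass in osteoblast-like cells, with log2 changes from -1 to 0.39. Single preparations and the test changed the number of calls. DESeq2 called 6 members, leaving out preparation 1 or 2 of the Fracture group left 4 or 5, and leaving out preparation 2 of Control gave 17. The count over all genes moved in step, from 3395 to 2013, 1430, 1490 and 5063. The class's own 7 markers summed to 110000 and 129000 CPM in Control and to 47400 and 60700 CPM after fracture, haemoglobin RNA was 7.34 and 42.1 CPM against 65.8 and 74.6 CPM, and the part of either was not tested.

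Whether the fracture effect on a gene differed among the 6 classes was tested with 5 class-by-group terms together. This was called for 33 of 36 members (91.7%), against 61.3% of all genes, the exceptions being Ifitm3, Gbp2 and Mx1. The smallest p belonged to Lgals3bp (edgeR adjusted p = 9.01e-08), with log2 changes from -0.68 in BMSC-like to 1.49 in smooth muscle-like cells. Samd9l followed (edgeR adjusted p = 1.98e-07), from -1.33 in BMSC-like to 0.68 in chondrocyte-like cells. Isg15 (edgeR adjusted p = 6.98e-07) ran from 0.16 in osteoblast-like to 1.97 in chondrocyte-like cells, and it fell in none of the 6, although without integration it fell in BMSC-like cells (-0.83).

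Zbp1 (edgeR adjusted p = 7.03e-07) fell by 1 on the log2 scale in BMSC-like cells, from 27.6 and 49.4 CPM to 18.2 and 20 CPM (by 1.84 without integration, edgeR adjusted p = 0.00128), and rose in the other 5 classes, by up to 2.83. In osteoblast-like cells its rise rested on 9 and 13 UMIs in Control and 26 and 25 after fracture. There and in smooth muscle-like cells it could have passed the filter on low counts of the class through the Fracture group alone. In chondrocyte-like cells it stood at 0.695 and 0.403 plain CPM against 1.54 and 1.36. Ifi27 (edgeR adjusted p = 7.69e-07) fell in osteoblast-like cells (-0.36 ± 0.08, 0.0115) and rose in chondrocyte-like (0.54 ± 0.07, 0.00133) and smooth muscle-like cells (0.69 ± 0.14, 0.00436). Rtp4 (edgeR adjusted p = 3.59e-06) fell in BMSC-like cells (-1.54 ± 0.15, 0.000149) and rose in fibroblast-like (1.34 ± 0.23, 0.00864) and smooth muscle-like cells (1.16 ± 0.3, 0.0163). Counts with 1 preparation left out are given further below, without the share over all genes.

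**Figure D4:**
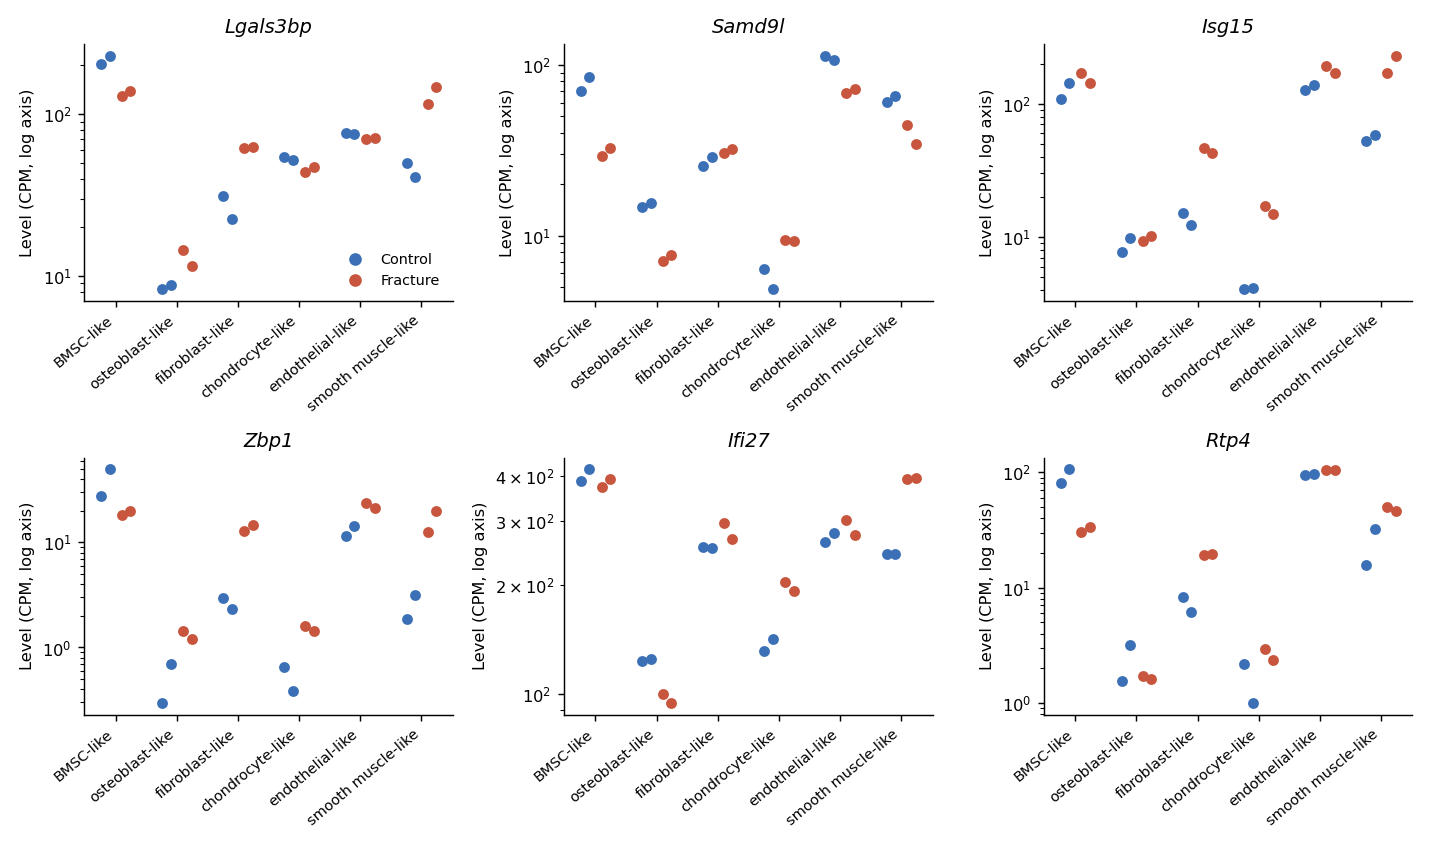
Levels of the 6 members with the smallest p for a difference between classes (Lgals3bp, Samd9l, Isg15, Zbp1, Ifi27 and Rtp4) in the 6 stromal classes, as CPM on log axes. Each point is 1 preparation, blue for Control and red for Fracture (n = 2 each). Zbp1 was lower after fracture in BMSC-like cells (27.6 and 49.4 CPM against 18.2 and 20 CPM) and higher in smooth muscle-like cells (1.88 and 3.16 CPM against 12.5 and 20 CPM). In smooth muscle-like cells it could have passed the filter on low counts of the class through the Fracture group alone.

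The rest of the pathway was read from a list of 53 further genes, 48 of which were in the tables. In BMSC-like cells 25 of 35 tested fell (71.4%, against 27.8% of all genes) and 4 rose (11.4%, against 27.9%), and without integration 25 fell and 3 rose. The largest falls were those of Iigp1, an interferon gamma-induced GTPase, from 250 and 494 CPM to 40.1 and 49.5 CPM (log2 change -3.05 ± 0.31, edgeR adjusted p = 0.000196), the myeloid factor Irf8 (-2.85 ± 0.18, 2.27e-05) and the chemokine Cxcl9 (-2.4 ± 0.56, 0.00874). Without integration these falls were -3.67, -2.72 and -4.45 on the log2 scale, and each passed (edgeR adjusted p = 8.96e-05, 9.54e-06 and 0.000656). In mpMSC-like cells 21 of 33 fell (63.6%, against 18.8% of all genes) and 4 rose (12.1%, against 20.1%), with Cxcl9 going from 46.8 and 142 CPM to 0.241 and 2.13 CPM (-6.17 ± 0.72, edgeR adjusted p = 8.26e-05), Iigp1 by -3.45 ± 0.27 (4.91e-06) and Gbp4 by -1.64 ± 0.42 (0.00939). Cxcl9 could have passed the filter on low counts there through the Control group alone, and its fold rests on 1 and 10 UMIs after fracture. Without integration it was -3.91 (edgeR adjusted p = 0.000799) and that of Iigp1 -2.5 (9.38e-05), with 19 of 33 pathway genes falling and 3 rising. In the dpMSC-like cluster 22 of 33 fell (66.7%, against 29.1% of all genes) and 4 rose (12.1%, against 29.5%). Those that fell included Irf8 (-2.99 ± 0.23, edgeR adjusted p = 9.11e-06), Iigp1 (-2.61 ± 0.25, 3.76e-05) and the interferon gamma receptor chain Ifngr1 (-1.99 ± 0.12, 2.16e-06). Without integration 1 of 32 pathway genes was called in that cluster, Socs3, which rose (1.36, edgeR adjusted p = 0.000463), and Irf8 (-0.78, edgeR adjusted p = 0.463), Iigp1 (-0.17, 0.828) and Ifngr1 (-0.68, 0.0843) did not pass.

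In smooth muscle-like cells 9 of 28 pathway genes rose (32.1%, against 18.1% of all genes) and 2 fell (7.14%, against 16.8%). Cxcl10, a chemokine induced by all interferon types, rose from 1 UMI in each Control preparation to 31 and 136 UMIs after fracture (log2 change 6.78 ± 1, edgeR adjusted p = 0.000842), a fold that rests on very low Control counts. Cxcl9 (2.64 ± 0.36, edgeR adjusted p = 0.000531) and the adaptor Tmem173, which encodes STING (2.09 ± 0.42, 0.00467), rose there too. These 3 genes could have passed the filter on low counts through the Fracture group alone. In fibroblast-like cells 6 of 30 rose (20%, against 11%) and 2 fell (6.67%, against 10.7%), and the same 3 genes led, with Cxcl10 at 3.25 ± 0.34 (edgeR adjusted p = 0.00166), Cxcl9 at 2.65 ± 0.55 (0.0172) and Tmem173 at 1.49 ± 0.33 (0.0221). Of these, Cxcl9 could have passed the filter in fibroblast-like cells through the Fracture group alone.

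The cytokine brake Socs3 was the leading riser in osteoblast-like cells, from 44.5 and 52.5 CPM to 436 and 396 CPM (log2 change 3.1 ± 0.11, edgeR adjusted p = 2.5e-06), followed by the factor Irf1 (2.15 ± 0.1, 5.04e-06), while the GTPase Igtp fell (-1.83 ± 0.21, 0.000584). Of 32 pathway genes tested in these cells 5 rose (15.6%, near the 14.1% of all genes) and 6 fell (18.8%, against 11.3%). In chondrocyte-like cells 7 of 35 rose (20%, below the 23.7% of all genes) and 2 fell (5.71%, against 21.8%), with Irf1 (1.44 ± 0.1, edgeR adjusted p = 9.61e-05) and Socs3 (0.79 ± 0.18, 0.0115) among those that rose. In endothelial-like cells 4 of 37 rose (10.8%, against 22.8%) and 16 fell (43.2%, against 20.3%), and Socs3 (1.56 ± 0.16, edgeR adjusted p = 0.000911) and Socs1 (0.93 ± 0.15, 0.00387) rose while Gbp4 fell (-0.78 ± 0.08, 0.000873). The ligand genes Ifna1, Ifna2, Ifna4, Ifna5 and Ifnl2 were not analysed here.

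Cells with several inducible transcripts were counted after each cell had been thinned to 1000 UMIs, and a high sum was at least 3 UMIs of the 30 inducible members. In mpMSC-like cells the share with a high sum was 9.49% and 14.9% in Control and 2.47% and 2.87% after fracture, and without integration it was 9.17% and 14.6% against 4.04% and 4.59%. BMSC-like cells went from 14.9% and 21.1% to 5.76% and 6.7%, and without integration from 14.5% and 20.9% to 4.92% and 5.27%. The dpMSC-like cluster went from 17.8% and 23.7% to 10.4% and 11.9%. Without integration dpMSC-like cells held 17.6% and 23.5% in Control and 30% and 17.1% after fracture, with overlap. Only 20 and 35 Fracture cells were left there. The part of the change in composition in the BMSC-like decrease was not tested. Endothelial-like cells went from 26.1% and 29.5% to 21.7% and 24.1%. In mpMSC-like, BMSC-like and endothelial-like cells the Fracture preparations lay below the Control preparations. The exact 95% binomial intervals of the lower endothelial-like Control (24% to 28.4%) and the higher Fracture preparation (21.9% to 26.4%) overlapped. Smooth muscle-like cells held 3.6% and 6.6% in Control and 10.1% and 10.8% after fracture, with exact 95% binomial intervals of 3.66% to 10.8% for the higher Control and 6.07% to 15.4% for the lower Fracture preparation, which overlap.

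Free RNA in droplets can give some UMIs to every cell, and its part in these shares was not tested. Osteoblast-like and chondrocyte-like cells held a high sum in 0.178% to 0.724% of cells in the same preparations. Depth differed between classes, so these values set no floor for the other classes. Median depth was 11082.5 to 21561 UMIs in those osteoblast-like preparations and 4097 to 8036.5 UMIs in the endothelial-like ones before thinning. With equal weight for the 6 classes, Fracture lay 1.81 percentage points below Control (difference -1.81). Without thinning the difference was 0.998. Median depth was higher after fracture in 4 of the 6 classes but lower in osteoblast-like (19445 UMIs in Control against 11466) and chondrocyte-like cells (15005 against 12561.5), and the part of depth in the reversal was not tested. Unthinned shares with at least 3 UMIs were 74% and 84% in endothelial-like Control cells and 92.3% and 94.2% after fracture. A high sum is a cut through a range, as 2243 of 37386 cells held 2 UMIs and 1094 held 3.

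**Figure D5:**
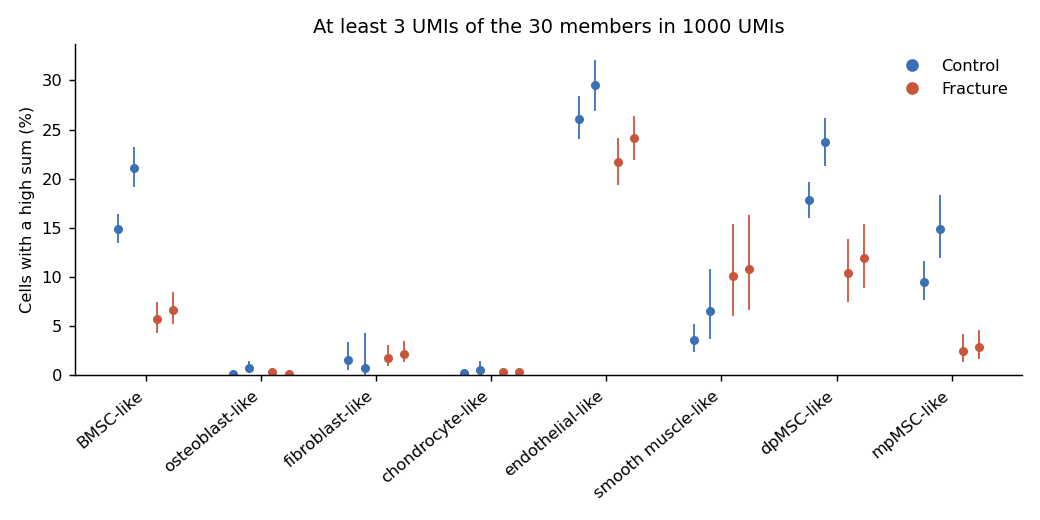
Share of cells with a high sum, at least 3 UMIs of the 30 inducible members among 1000 UMIs, in percent for each cell class. Each point is 1 preparation, blue for Control and red for Fracture, and bars are exact 95% binomial intervals, which cover counting error only. Shares were lower after fracture in mpMSC-like cells (9.49% and 14.9% against 2.47% and 2.87%) and higher in smooth muscle-like cells (3.6% and 6.6% against 10.1% and 10.8%).

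Inducible members were found together in the same cells of the BMSC-like and endothelial-like classes and of chondrocyte-like Fracture preparations. Cells with at least 2 UMIs of Isg15, Ifit1, Ifit3, Rsad2, Oasl2 and Irf7 together were compared with the other cells of their class and preparation for the summed level of the other 24 inducible members. In the 10 pairs of class and preparation with at least 20 such cells, that level was 2.14 to 12.1 times higher in them (median 2.69). These pairs came from 3 classes, BMSC-like, endothelial-like and chondrocyte-like, the last in Fracture only and on 39 and 26 UMIs. Over all 23 pairs with any such cell, in 6 classes, the ratio ran from 0 to 65.3 (median 5.14). BMSC-like cells held 5.43% and 6.46% of such cells in Control and 3.55% and 4.33% after fracture. Within them the 24 members stood at 2140 and 3200 CPM in Control and at 2390 and 2730 CPM after fracture, with overlap, whereas in the remaining BMSC-like cells they went from 857 and 1110 CPM to 343 and 359 CPM, without overlap. Of the BMSC-like cells, those of the dpMSC-like cluster held 5.65% and 7.13% of such cells in Control and 6.93% and 7.52% after fracture. The mpMSC-like cells held 5.03% and 4.83% against 1.14% and 1.97%. In Fracture 26 and 31 such cells lay in the dpMSC-like cluster. The 24 members in the remaining cells of that cluster went from 963 and 1280 CPM to 398 and 512 CPM. They went from 658 and 713 CPM to 305 and 252 CPM in mpMSC-like cells. Cxcl10 in such BMSC-like cells was 432 and 669 CPM in Control and 314 and 718 CPM after fracture, and between 9.2 and 58.5 CPM in the others. Most of it lay in the dpMSC-like cluster, with 59 and 71 UMIs in Control and 10 and 25 after fracture. Such mpMSC-like cells held 0 and 3 UMIs, then 0 and 5. Such endothelial-like cells held 111 and 6.97 CPM, then 138 and 326 CPM, against 21.6 to 37.8 CPM in the others. Such chondrocyte-like cells held 0 UMIs. These are descriptions over 32 to 137 such cells per preparation in the BMSC-like class, and over 6 and 11 in mpMSC-like Fracture cells. Without integration BMSC-like cells held 5.31% and 6.47% of such cells in Control and 2.37% and 3.1% after fracture, where only 14 and 20 were left. Within them the 24 members stood at 2130 and 3150 CPM in Control and at 1220 and 2760 CPM after fracture, and in the remaining cells they went from 839 and 1090 CPM to 363 and 360 CPM. Cxcl10 in such cells was then 426 and 646 CPM in Control and 0 and 1150 CPM after fracture, values that rest on few cells. Split by kind, the 24 members in the remaining dpMSC-like cells held 963 and 1270 CPM in Control and 1000 and 900 CPM after fracture. In the remaining mpMSC-like cells they went from 635 and 689 CPM to 343 and 333 CPM. Only 20 and 35 Fracture cells were dpMSC-like there, and the part of composition in the BMSC-like values was not tested.

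Usp18, which removes ISG15 from proteins and holds back the interferon receptor, had values in Control preparation 2 and in both Fracture preparations. In BMSC-like cells it stood at 32.9 CPM in Control and at 11.7 and 13.6 CPM after fracture. In mpMSC-like cells it stood at 22.5 CPM against 7.62 and 5.24 CPM, and in endothelial-like cells at 37.4 CPM against 24.2 and 25.2 CPM. Smooth muscle-like cells held 11.9 CPM in Control and 14 and 19 CPM after fracture. No test was made with a single Control value.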

How the data were processed

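Droplet libraries of femoral stromal cells were analysed, 2 Control and 2 Fracture preparations of 2 libraries each. The tables deposited by the authors hold raw counts of UMIs for each barcode and gene, not normalised. The submitters' notes name bcl2fastq 2.19.1.403, UMI-tools 1.0.0, STAR 2.7.3a, Subread with featureCounts 1.6.4 and mm10, while the published methods name STARsolo and EmptyDrops, and how barcodes were selected is not settled (the smallest Control barcode held 1 UMI, the smallest Fracture barcode 1900). Both tables of Control preparation 1 held no gene whose symbol starts with U, so 367 genes that only 6 tables held were left out, among them Usp18. Ifit3b was matched through its older symbol.

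Cells with 500 to 6000 genes and at most 25% mitochondrial UMIs were kept, with genes seen in 3 cells or more. Libraries were integrated and clustered in Seurat 5.3.0 (R 4.3.3; 30 dimensions for anchors, 12 for clusters, resolution 0.1), without the members among the genes that form clusters. Clusters were named from marker lists. A further clustering took the marrow stromal, osteoblast-like and fibroblast-like cells (13 dimensions, resolution 0.08), together with unnamed clusters in which under 25% of cells held Ptprc, which was decided once the clusters were known. Doublets were called with scrublet in scanpy 1.11.5 (527 cells, 1.16%) and kept. In 3 Fracture libraries under 0.5% were called, so the caller did not work there, and removal of the highest 6% of scores was tried as well. Libraries of a preparation shared 13 to 23 barcodes and those of different preparations 10 to 20. They differed beyond sampling noise and were summed.

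Counts were summed per class and preparation, given 20 or more cells in each, and tested with edgeR 4.0.16 (quasi-likelihood test, TMM, filterByExpr, Benjamini-Hochberg over all genes of the class, threshold 0.05). A member counted as tested passed that filter on low counts, which a gene can pass through 1 group alone. Levels of tested genes are CPM on the TMM scale, and sums are plain CPM. SE is the standard error of a log2 change. The 3′ counts are not scaled by length. In a series of bracketed values, the last of each is the adjusted p. Differences between classes were tested with class-by-group terms and the preparation as a block. Alternatives were DESeq2 1.42.0, no filter, doublet removal, cells with at least 3000 UMIs, no integration, a replicate block and each preparation left out. Clustering with the U genes kept, removal of the highest doublet scores, and the test of dpMSC-like against mpMSC-like cells were added after seeing the data. The tests were tried on simulated data. Usp18 was dropped from all sums and from the co-expression list.

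The members and lists were chosen with earlier results of these data known. In every class Isg15, Ifit1, Ifit3, Irf7, Stat2, Bst2, Ifitm3, Lgals3bp, Gbp2 and Eif2ak2 were named, and beside them up to 5 called members per direction with the largest log2 change at a mean of at least 5 CPM, up to 3 pathway genes per class, and the 6 members with the smallest p between classes. Other genes named for a direction, a role or a listed count were chosen after their values were seen. Intervals are exact binomial (95%) and cover counting error only. Promoter windows came from RefSeq GRCm38.p6 and gene positions from GENCODE.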

Additional observations from a re-analysis of the deposited data

Results flagged for a closer look

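The effect of fracture on single members differed between cell classes, by a test of the difference itself. Across the 6 stromal classes this was called for 33 members, and between dpMSC-like and mpMSC-like cells for 15. By edgeR's quasi-likelihood test with Benjamini-Hochberg adjustment, the difference across the 6 classes had an adjusted p of 9.01e-08 for Lgals3bp, 1.98e-07 for Samd9l, 6.98e-07 for Isg15, 7.03e-07 for Zbp1, 7.69e-07 for Ifi27 and 3.59e-06 for Rtp4. Against this stands a background in which 61.3% of all genes differed across the 6 classes and 29.9% between dpMSC-like and mpMSC-like cells. The Fracture cells of the dpMSC-like cluster had lost most of its marker level (3970 and 5820 CPM against 47400 and 42400 CPM in Control), and the part of that in the 15 calls was not tested.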

How the results depend on the processing

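Most values kept their direction and their side of the threshold. Of the values recomputed for named members and for summed levels, 1255 did so, 43 newly passed the threshold, 88 no longer passed it and 33 changed sign. Another 3, all of them summed levels, kept their sign but moved by more than the spread between preparations. With n = 2 per group, leaving out 1 preparation was the largest source of lost calls. The counts of members called then ranged from 21 to 28 in BMSC-like, 4 to 17 in osteoblast-like, 3 to 13 in fibroblast-like, 6 to 17 in chondrocyte-like, 6 to 22 in endothelial-like, 15 to 22 in smooth muscle-like, 18 to 29 in dpMSC-like and 25 to 33 in mpMSC-like cells, from 26 to 35 for the difference across 6 classes and from 12 to 14 for that between dpMSC-like and mpMSC-like cells. The lone preparation left in a group was assumed to vary like those of the other. These ranges stand without the share over all genes, whose counts changed as well, so they do not show how stable the members are beside other genes. Leaving out Fracture preparation 1 or 2 took 23 or 21 values of named members below the threshold, and leaving out Control preparation 1 or 2 took 2 or 3. DESeq2 called 6 members in osteoblast-like and 12 in smooth muscle-like cells. Without integration 17 were called in fibroblast-like and 2 in dpMSC-like cells, the latter with 20 and 35 Fracture cells. With the highest doublet scores removed 21 were called in chondrocyte-like cells.

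The difference in the share of cells with a high sum (-1.81 percentage points) was -3.55 at 2 UMIs, 0.998 without thinning and 0.224 with all members at 5 UMIs, and -2.86 to -0.759 with 1 preparation left out. The log2 ratio of the summed level in osteoblast-like cells was -0.32 without the widely expressed members.

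Single log2 changes that changed sign were, without integration, Isg15 (-0.83), Ifit3 (-1.46) and Eif2ak2 (-0.09) in BMSC-like cells, Gbp2 (0.52) in fibroblast-like cells, Irf7 (0.01), Bst2 (0.48), Ifitm3 (0.09), Lgals3bp (0.25) and Rtp4 (0.13) in dpMSC-like cells, and Ifitm3 (0.03) in mpMSC-like cells. Removal of the highest doublet scores turned Gbp2 in osteoblast-like (0.04), fibroblast-like (0.36) and smooth muscle-like (0.11) and Irf7 in endothelial-like cells (0.09). With at least 3000 UMIs per cell Gbp2 in fibroblast-like (0.04) and Irf7 in endothelial-like cells (0.01) turned, with no filter Gbp2 in fibroblast-like cells (0.04), with DESeq2 Ifitm3 in dpMSC-like cells (0.02), and with the U genes kept Gbp2 in smooth muscle-like cells (0.01). The cause of these changes was not tested. With each of the 4 preparations left out in turn, log2 changes ranged across 0 for several more, from -0.01 to 0.29 for Eif2ak2 and -0.18 to 0.1 for Ifit1 in BMSC-like cells, -0.01 to 0.33 for Isg15, -0.15 to 0.34 for Eif2ak2 and -0.54 to 0.09 for Ifit3 in osteoblast-like cells, -0.43 to 0.23 for Gbp2 in fibroblast-like cells, -1.21 to 0.22 for Ifit1 and -0.12 to 1.33 for Ifitm3 in chondrocyte-like cells, -0.58 to 0.16 for Gbp2 in smooth muscle-like cells and -0.1 to 0.06 for Ifitm3 in dpMSC-like cells.

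Preparation numbers correlated at r = 0.07 to 0.23 across genes, over only 2 pairs, and nothing in the labels says that they pair animals. With the number as a replicate block 26 members were called in BMSC-like, 11 in osteoblast-like, 8 in fibroblast-like, 12 in chondrocyte-like, 22 in endothelial-like, 19 in smooth muscle-like, 29 in dpMSC-like and 30 in mpMSC-like cells. Over all genes 8465, 3854, 2274, 7188, 6053, 3590, 7805 and 4968 were then called, in the same order. Without the block these counts were 7946, 3395, 2630, 7765, 6066, 3653, 7699 and 4717. The pairing moved no count by over 1.5 times.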
